A study of Homo sapiens with 6 samples.

Results

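The ERBB receptors and their EGF-family ligands were examined in DLD-1 cells with and without forced expression of DKK1. The members were 10 genes, the ligands EREG, AREG, HBEGF, TGFA, BTC, NRG1 and NRG3 and the receptors EGFR, ERBB2 and ERBB3. They were chosen by name, with their array values in these cells and their DLD-1/DKK1 against DLD-1/Mock differences already known, so both are given below as a description. No p-value is given for a member, and counts of members past a threshold stand beside the share of all probe sets and support nothing. A gene was taken as measured where the platform annotation gave a probe set, the unit of the array that stands for a transcript, that gene as its only symbol. This held for 9 of the 10 genes, with 10 of the 32321 probe sets on the arrays, since NRG1 had 2. AREG was not analysed here.

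DLD-1 is an established human colorectal adenocarcinoma line with a mutated APC gene. DLD-1/DKK1 cells carried a lentivirus that expresses DKK1, a secreted inhibitor of Wnt signalling, when doxycycline is present, and DLD-1/Mock cells carried the matching virus without DKK1. Both groups received doxycycline for a day, which the labels put at 10 mg/ml whereas the study's methods give micrograms, and RNA of 3 dishes of each group was hybridised to 6 whole-transcript arrays. The labels describe transduction with most cells carrying the virus and mention no cloning. Nothing in the sources used here says that the dishes of a group came from more than 1 transduction, so the errors measure the spread between dishes.

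Ligands of the EGF family are made as membrane proteins and released by metalloproteases of the ADAM family. They bind ERBB receptors on the same or neighbouring cells, which then pair and phosphorylate each other and feed the RAS/ERK and PI3K pathways. EREG, AREG, TGFA, HBEGF and BTC bind EGFR, and EREG, HBEGF and BTC also bind ERBB4, while NRG1 binds ERBB3 and ERBB4 and NRG3 binds ERBB4. ERBB2 has no known ligand and serves as the partner of the others, and ERBB3 has little kinase activity of its own and recruits PI3K once paired. In colorectal tumours EREG and AREG are known as ligands whose RNA level goes with the response to antibodies against EGFR.

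The promoter windows of the ligands with the largest differences, EREG and HBEGF, and of BTC, which lies in the same run of genes as EREG, are shown so that a reader can compare their sequence. Each runs from 250 bases before to 50 bases after the annotated start, 5′ to 3′ on the strand of the gene, and comes from RefSeq in the build GRCh38.p14. They lie at chr4:74364895-74365194 on the plus strand for EREG, chr5:140346554-140346853 on the minus strand for HBEGF and chr4:74794474-74794773 on the minus strand for BTC. Capitals mark every match to a motif. On the strand of the gene, TATAAA was searched as the box of that name. On both strands, GGGCGG was searched for SP/KLF factors, TGANTCA for AP-1, TGACGTCA for CREB and CTTTGAT for TCF/LEF factors.
EREG: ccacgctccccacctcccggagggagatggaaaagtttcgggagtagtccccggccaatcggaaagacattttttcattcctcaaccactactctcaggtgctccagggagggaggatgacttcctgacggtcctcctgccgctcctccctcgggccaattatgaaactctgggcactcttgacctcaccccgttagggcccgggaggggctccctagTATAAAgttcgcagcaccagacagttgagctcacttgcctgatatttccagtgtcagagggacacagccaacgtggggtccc
HBEGF: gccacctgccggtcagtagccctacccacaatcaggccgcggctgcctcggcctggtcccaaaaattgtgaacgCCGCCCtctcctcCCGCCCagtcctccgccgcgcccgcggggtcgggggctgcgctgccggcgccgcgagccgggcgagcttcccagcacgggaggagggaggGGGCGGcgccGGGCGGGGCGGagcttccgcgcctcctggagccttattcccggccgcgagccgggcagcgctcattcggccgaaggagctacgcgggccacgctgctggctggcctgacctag
BTC: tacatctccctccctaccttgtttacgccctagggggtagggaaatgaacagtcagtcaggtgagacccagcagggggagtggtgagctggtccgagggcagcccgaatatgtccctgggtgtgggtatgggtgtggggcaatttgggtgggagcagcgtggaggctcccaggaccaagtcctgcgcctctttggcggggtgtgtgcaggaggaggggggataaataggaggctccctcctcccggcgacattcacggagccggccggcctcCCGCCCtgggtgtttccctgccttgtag

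The EREG window held a single match, a TATAAA that begins 32 bases before the start, which 7.33% of all 35116 windows of this length held. HBEGF had no TATAAA and 5 matches to GGGCGG, of which the last 2 overlap, in a window with 75.0% G and C, and 45.0% of all windows held GGGCGG at least once. BTC had 1 GGGCGG, at base 23 after the start. In all, 8 of the 10 genes had 11 windows, NRG1 and ERBB3 not among them. AREG, the next gene after EREG, likewise had a TATAAA, 29 bases before its start, and a TGACGTCA, which 1.85% of all windows held. TGANTCA was found in 1 of the EGFR windows and in the ERBB2 window, against 7.71% of all windows, and CTTTGAT in 0 of the 11, against 2.62% of all. A match of letters is a description of the sequence and not a binding site.

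Before the members were compared, the arrays were checked. The DKK1 probe set read 12.30, 12.38 and 12.36 on the log2 scale in DLD-1/DKK1, against 5.15, 5.74 and 5.01 in DLD-1/Mock, as the labels require. Of 11 markers of colon epithelium fixed for this check, 10 were brighter than the mark explained below, the exception being KRT20. Mock 2 correlated with the other arrays at 0.9953 to 0.9969, and pairs without it at 0.9973 or more. Differences of some genes are therefore also given without it. Of 13 measured markers of leukocytes, fibroblasts, endothelium, muscle and hepatocytes, 11 were below 0 in DLD-1/DKK1 against DLD-1/Mock. The median difference of the 13 was -0.07, and that of all probe sets was -0.006. The summed log2 values of the 13 markers were 75.9 to 76.4 in DLD-1/DKK1, against 76.7 to 78.3 in DLD-1/Mock. The highest sum was that of Mock 2, and the sums are not given without it. COL1A1, for instance, read 7.74 on Mock 2, against 7.46 and 7.36 on the other DLD-1/Mock arrays. Of the 13, 7 lay above the mark, and 0 passed an adjusted p of 0.05. The lowest differences were those of the monocyte and macrophage markers CD14 and CD68. CD14 had means of 6.09 in DLD-1/DKK1 and 6.36 in DLD-1/Mock, and CD68 had 7.22 in DLD-1/DKK1 and 7.48 in DLD-1/Mock. The groups did not overlap in 5 of the 13 markers, CD14 and CD68 among them, beside 16.5% of all probe sets. PTPRC (4.34 in both), CD3E, DCN, PECAM1, VWF and ALB lay below the mark. The part of this shift in the results below was not tested.

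Of the 10 member probe sets, 7 were brighter than a mark set for dim probe sets. As a yardstick served the 350 probe sets of olfactory receptor genes, which a colon line is not expected to use widely, and the 95th percentile of their mean log2 values, 6.05, was taken as a mark. The receptors EGFR (mean of 9.19 over the 6 arrays), ERBB2 (9.65) and ERBB3 (9.75) and the ligands EREG (10.65), TGFA (9.60), HBEGF (7.66) and BTC (6.58) lay above it. NRG3 (5.58) and both NRG1 probe sets (5.13 and 4.87) lay below it. NRG1 and NRG3 were thus not told from background by this mark, and the processing compresses differences of dim probe sets. The brightest olfactory receptor probe set read 8.82, above HBEGF and BTC, and BTC lay at percentile 47.2 of all probe sets. The mark therefore does not settle that HBEGF and BTC are expressed. Probe sets differ in how strongly they bind, so these means rank no gene above another in transcripts.

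**Figure D1:**
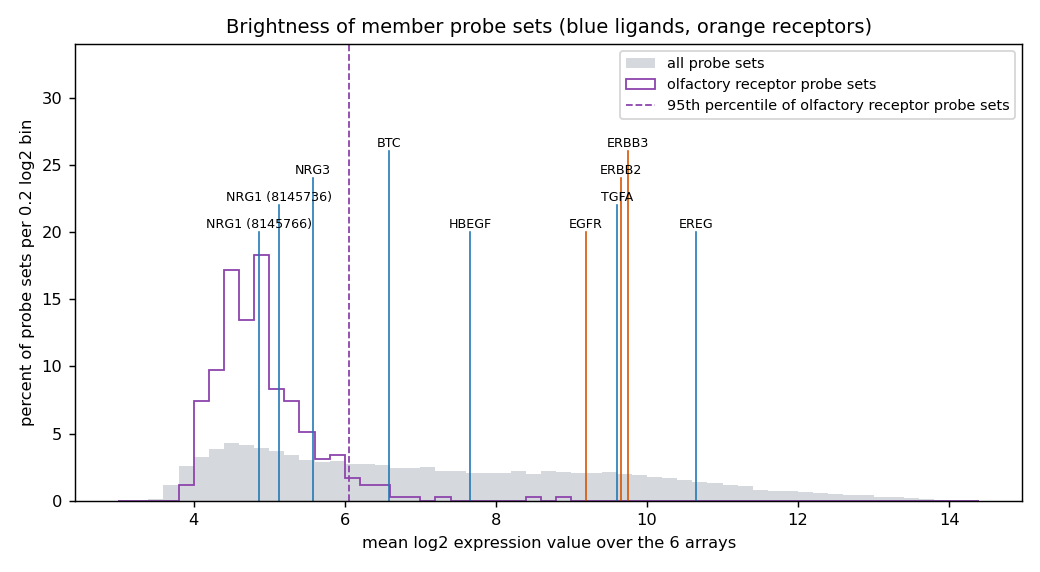
Mean log2 expression value over the 6 arrays (horizontal axis) against the percent of probe sets per bin of 0.2 (vertical axis), for all probe sets (grey) and those of olfactory receptor genes (purple), with a line for each member (blue ligands, orange receptors; line heights only separate the names). The dashed mark lies at 6.05, with the NRG1 and NRG3 lines to its left and the other members to its right.

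Among the ligands, epiregulin differed most between the cells. EREG, a ligand of EGFR and ERBB4, had log2 values of 10.47, 10.46 and 10.51 in DLD-1/DKK1, against 10.86, 10.82 and 10.81 in DLD-1/Mock. All DLD-1/DKK1 arrays lay below all DLD-1/Mock arrays, with a gap of 0.31 between the groups and a spread of 0.025 (SD, n = 3) in DLD-1/DKK1 and 0.024 (SD, n = 3) in DLD-1/Mock. The log2 difference was -0.35 (moderated SE 0.04), a ratio of 0.783. Of all probe sets, 98.5% had a difference of smaller size. RNA came from whole dishes, so fewer EREG-expressing cells and less EREG RNA per cell cannot be told apart. The difference was -0.36 without Mock 2, -0.37 after quantile normalisation and -0.30 after median centring.

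HBEGF, a heparin-binding ligand of EGFR and ERBB4 and also the receptor of diphtheria toxin, had log2 values of 7.50, 7.60 and 7.62 in DLD-1/DKK1, against 7.66, 7.72 and 7.88 in DLD-1/Mock. The groups did not overlap, but the highest DLD-1/DKK1 array and the lowest DLD-1/Mock array were only 0.03 apart. The log2 difference was -0.18 (SE 0.07), a ratio of 0.885, and it leaned on Mock 3. Without that array it was -0.11, and without Mock 2 it was -0.20.

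TGFA and BTC showed no separation of the groups. TGFA, the classical autocrine ligand of EGFR in carcinoma cells, had log2 values of 9.55, 9.69 and 9.56 in DLD-1/DKK1, against 9.65, 9.56 and 9.62 in DLD-1/Mock. The difference was -0.01, with a 95% interval of -0.14 to 0.12. BTC, a ligand of EGFR and ERBB4, had 6.47, 6.66 and 6.58 in DLD-1/DKK1, against 6.68, 6.45 and 6.62 in DLD-1/Mock. Its difference was -0.01 as well, with a wider interval of -0.20 to 0.17. Both signs turned after median centring, to 0.04 and 0.04.

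The listed neuregulins, NRG1 and NRG3, were dim in both groups. The NRG1 probe set 8145736, which the annotation ties to many transcripts, had log2 values of 5.14, 5.10 and 5.15 in DLD-1/DKK1, against 5.14, 5.12 and 5.12 in DLD-1/Mock. The other, 8145766, which it ties to a single transcript record, had 5.0, 4.79 and 4.89 in DLD-1/DKK1, against 4.82, 4.84 and 4.91 in DLD-1/Mock. In both the groups overlapped. NRG3, known mainly from neural tissue, had 5.56, 5.56 and 5.48 in DLD-1/DKK1, against 5.48, 5.83 and 5.57 in DLD-1/Mock, where Mock 2 was the high array. Its difference was -0.09 (SE 0.09) over all arrays, 0.01 without Mock 2, -0.17 without Mock 1 and -0.04 after median centring.

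Of the receptors, ERBB3 alone had arrays that did not overlap between the groups. ERBB3 had log2 values of 9.82, 9.83 and 9.80 in DLD-1/DKK1, against 9.67, 9.70 and 9.68 in DLD-1/Mock. Every DLD-1/DKK1 array lay above every DLD-1/Mock array, and the SD was 0.016 in DLD-1/DKK1 and 0.013 in DLD-1/Mock (n = 3 each). The log2 difference was 0.13 (SE 0.04), a ratio of 1.10, and it was 0.14 without Mock 2, 0.11 after quantile normalisation and 0.19 after median centring.

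EGFR and ERBB2 overlapped between the groups. EGFR, the receptor of most ligands listed here, had log2 values of 9.14, 9.21 and 9.17 in DLD-1/DKK1, against 9.17, 9.26 and 9.18 in DLD-1/Mock, a difference of -0.03 with a 95% interval of -0.14 to 0.08. ERBB2 had 9.66, 9.68 and 9.62 in DLD-1/DKK1, against 9.60, 9.66 and 9.66 in DLD-1/Mock, a difference of 0.01 with an interval of -0.08 to 0.11. The EGFR difference was 0.02 after median centring and that of ERBB2 -0.01 after quantile normalisation, so neither has a settled sign.

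**Figure D2:**
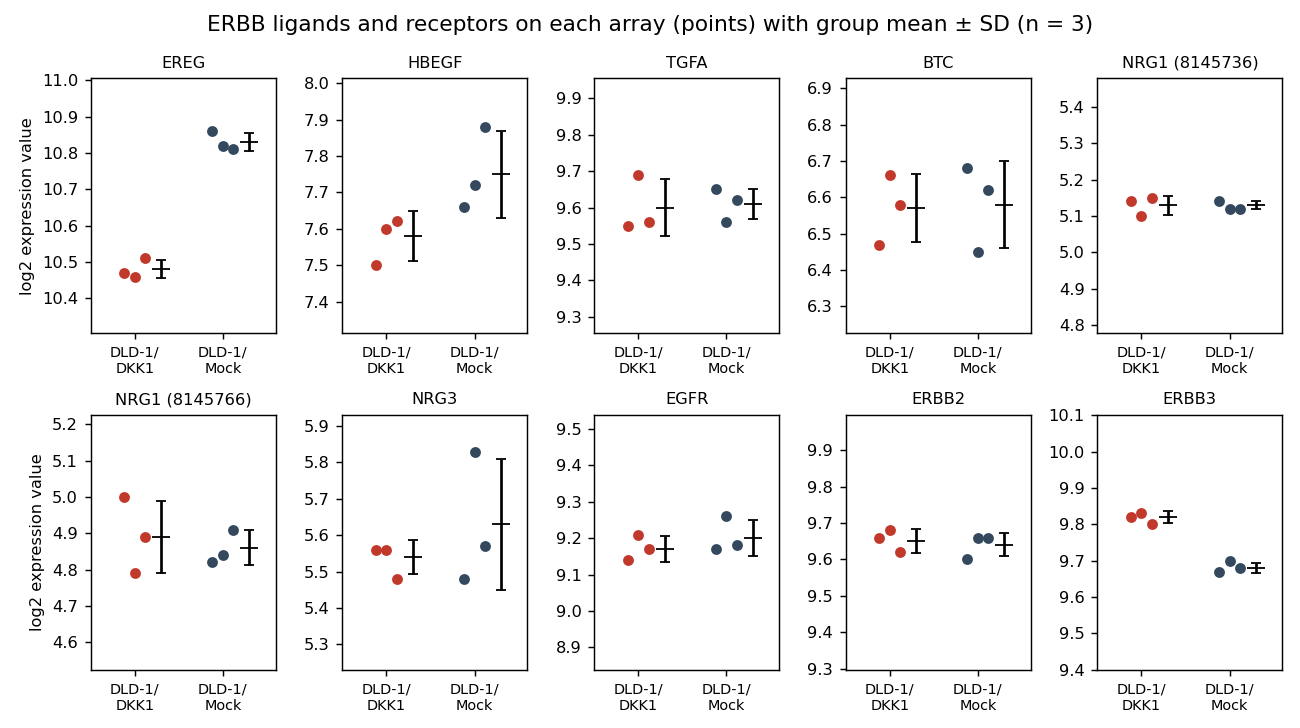
Log2 expression value (vertical axes, each spanning 0.7 units) of the 10 member probe sets on the DLD-1/DKK1 (red, left) and DLD-1/Mock (dark blue, right) arrays, with a bar and whiskers for the group mean ± SD (n = 3). EREG and HBEGF lie lower and ERBB3 higher in DLD-1/DKK1 without overlap, and the groups overlap in the other panels.

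Across the family, limma, a linear model fitted over the whole array with a spread shared between probe sets, placed 0 of the 10 members under an adjusted p of 0.05, and 0.0866% of all probe sets. Before adjustment 3 of the 10 were under 0.05, 2 lower (EREG and HBEGF) and 1 higher (ERBB3), beside 9.23% of all probe sets. The same 3 were the ones without overlap between the groups, as were 16.5% of all probe sets. Since the members were chosen with these differences known, nothing is read from the shares. The call of EREG depended on the fit, as described in the closing section.

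**Figure D3:**
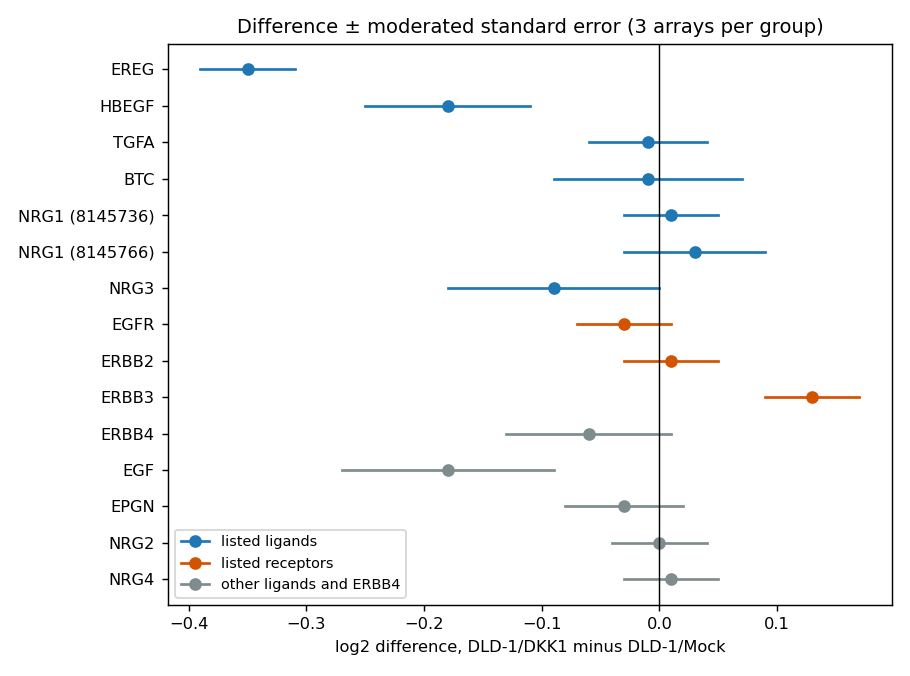
Log2 difference of DLD-1/DKK1 minus DLD-1/Mock (horizontal axis) for the listed ligands (blue), the listed receptors (orange) and the remaining ligands with ERBB4 (grey), with whiskers for ± 1 moderated SE (3 arrays per group). EREG lies lowest at -0.35 and ERBB3 highest at 0.13, and the others lie between -0.18 and 0.03.

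The profile most like that of EREG over the 6 arrays was sought among all probe sets with 1 gene symbol, by the root mean square distance after each was centred on its own mean. The nearest was TGFBI, an extracellular matrix protein, at a distance of 0.0241, followed by UNC13D, a protein of granule exocytosis, at 0.0309, and C4BPB, a chain of the complement inhibitor C4b-binding protein, at 0.0371. Their log2 differences were -0.34, -0.38 and -0.31. With only 6 arrays in 2 groups, the likeness is mainly that of the difference between the groups.

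The remaining members of the ligand and receptor families were mostly dim and did not differ detectably. ERBB4, the fourth receptor, had log2 values of 5.16, 5.11 and 5.24 in DLD-1/DKK1, against 5.13, 5.36 and 5.18 in DLD-1/Mock. EGF had 5.17, 5.17 and 5.28 in DLD-1/DKK1, against 5.19, 5.42 and 5.55 in DLD-1/Mock, a difference of -0.18 (SE 0.09; limma adjusted p = 0.593), which was -0.10 without Mock 3 and -0.28 without Mock 1. EPGN, the ligand gene beside EREG, and NRG4 lay at 4.22 to 4.30 in DLD-1/DKK1, against 4.23 to 4.37 in DLD-1/Mock. NRG2 was the one of the 5 above the mark, with 7.53 to 7.56 in DLD-1/DKK1, against 7.51 to 7.58 in DLD-1/Mock. The limma adjusted p of ERBB4, EPGN, NRG2 and NRG4 ran from 0.800 to 0.977.

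The genes through which ERBB signalling is started, relayed and ended were then counted in 6 lists written by role, of which the first held the 5 genes above. Of 100 listed genes 92 were analysed here, and 0 passed an adjusted p of 0.05 in limma in either direction. Before adjustment 10 (10.9%) were under 0.05, 5 higher and 5 lower in DLD-1/DKK1, beside the 9.23% of all probe sets given above. In 23 (25.0%) the groups did not overlap, beside 16.5% of all probe sets. All probe sets include those without a gene symbol, and brightness was not matched, so nothing is read from these shares.

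Genes of ligand shedding, with the proteases ADAM10 and ADAM17, had a median log2 difference of -0.03 over 14 genes, and that of all probe sets was -0.006. The lowest was TIMP3, an inhibitor of these proteases. TIMP3 had 8.36, 8.25 and 8.20 in DLD-1/DKK1, against 8.41, 8.50 and 8.56 in DLD-1/Mock, a difference of -0.22 (SE 0.06; limma adjusted p = 0.445).

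Inhibitors of the receptors and the ubiquitin ligases that mark them for breakdown had a median difference of 0.02 over 15 genes and ran from -0.14 to 0.15. LRIG3, a membrane protein of the LRIG family, had 8.81, 8.73 and 8.68 in DLD-1/DKK1, against 8.62, 8.54 and 8.60 in DLD-1/Mock, a difference of 0.15 (SE 0.05; limma adjusted p = 0.484). ERRFI1, a feedback inhibitor that binds the kinase domain of EGFR, had 11.08, 11.09 and 11.03 in DLD-1/DKK1, against 11.14, 11.18 and 11.22 in DLD-1/Mock, a difference of -0.11 (SE 0.04; limma adjusted p = 0.518), which was -0.06 after median centring. Neither passed, and the groups did not overlap in either gene.

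The 17 genes of receptor uptake and degradation had a median of 0.03 and kept within -0.11 to 0.09. The 25 adaptors and transducers of the RAS and PI3K pathways had a median of 0.02. In this list PIK3R3, a regulatory subunit of PI3K, had a difference of 0.18 (SE 0.06; limma adjusted p = 0.514), which was 0.12 without Mock 2. PLCG1, a phospholipase that binds activated receptors, had a difference of 0.10 (SE 0.04; limma adjusted p = 0.536), which was 0.16 after median centring.

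The 16 genes of ERK output and feedback had a median of -0.03, but held the widest differences. EGR1, an immediate early transcription factor, had log2 values of 10.08, 10.05 and 10.18 in DLD-1/DKK1, against 10.52, 10.68 and 10.68 in DLD-1/Mock. Its difference was -0.52 (SE 0.06; limma adjusted p = 0.0696). DUSP5, a nuclear phosphatase of ERK, had 8.23, 8.19 and 8.27 in DLD-1/DKK1, against 8.70, 8.78 and 8.60 in DLD-1/Mock, a difference of -0.46 (SE 0.06; limma adjusted p = 0.0696). Neither gene passed. The groups did not overlap in 8 of the 16 genes, EGR1 and DUSP5 among them, beside 16.5% of all probe sets. In this list 4 of the 16 genes were under 0.05 before adjustment, 3 lower and 1 higher, beside 9.23% of all probe sets. Of the 16 differences, 7 were above 0 and 9 below, and they ran from -0.52 to 0.16.

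**Figure D4:**
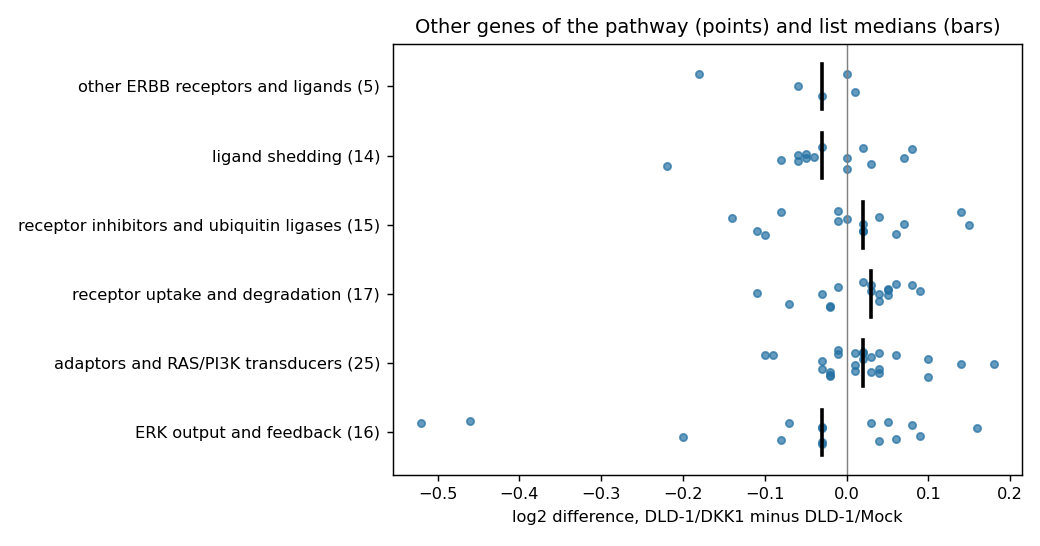
Log2 difference of DLD-1/DKK1 minus DLD-1/Mock (horizontal axis), 1 point per measured gene in the 6 lists (vertical spread has no meaning), bars at the medians and gene numbers in brackets. The medians lie between -0.03 and 0.03, and EGR1 and DUSP5 stand apart at -0.52 and -0.46.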

How the data were processed

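RNA of 3 DLD-1/DKK1 and 3 DLD-1/Mock dishes was measured on Human Gene 1.0 ST arrays (Affymetrix). The authors read the scans into R with the affy package and deposited log2 values made by the robust multichip average method, which corrects background, equalises the array distributions and summarises probes, so that a change common to most transcripts is removed and small values are compressed. Versions of these tools are not given in the sources used here. No further normalisation was applied.

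Samples were grouped by title. Of 32321 probe sets, 19158 had 1 gene symbol, 1388 several and 11775 none, and only the first were named. Gene numbers gave the current symbol in the GRCh38.p14 table. All probe sets were fitted with limma 3.58.1 in R 4.3.3 (lmFit, eBayes, default prior, 4 residual and 2.56 prior degrees of freedom), DLD-1/DKK1 minus DLD-1/Mock, two-sided, with Benjamini-Hochberg adjustment over all probe sets and a threshold of 0.05. Per gene in a list, the brightest probe set was kept. The number of arrays limits the precision. The fit was also run on simulated arrays with independent noise, and no result here rests on that run.

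Members and lists were chosen with earlier results of these data known. Named were all member probe sets, DKK1, the other ERBB ligands and receptors, up to 2 genes per list with the smallest p under 0.05 before adjustment, the 3 profiles nearest to that of EREG and up to 4 coding genes on each side of its gene run. Alternatives were quantile normalisation, median centring, 2 filters, 2 priors, array weights, a replicate block, leaving out 1 array in turn, and the mean of several probe sets of a gene.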

Additional observations from a re-analysis of the deposited data

How the results depend on the processing

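Of all probe sets 28 passed (12 higher in DLD-1/DKK1, 16 lower). The count was 34 (15 higher and 19 lower) with quantile normalisation and 17 (10 higher and 7 lower) with median centring. It was 66 above the median brightness, 98 among annotated probe sets, 53 with a trended and robust prior and 59 with array weights. It was 1 without moderation and 2 to 6 whichever array was left out. EREG passed, lower in DLD-1/DKK1, after quantile normalisation, above the median brightness and among annotated probe sets. EREG also passed with the trended and robust prior and with array weights, and was the 1 member that did. In the other settings 0 members passed. EREG was chosen with its difference known, so these calls show only how the count depends on the fit and support nothing. Of the pathway genes, EGR1 and DUSP5 (2 genes) passed above the median brightness and among annotated probe sets, EGR1 (1 gene) with the trended prior and DUSP5 (1 gene) with array weights. The filters test fewer probe sets and also refit the prior on those kept. The cause of the differing counts was not tested, for the filters or for the rest. EREG, HBEGF and ERBB3 kept their sign in all 14 alternatives, with EREG at -0.37 to -0.34 and ERBB3 at 0.13 to 0.14 when 1 array was left out, and the other 7 member probe sets changed sign in at least 1. Their groups do not overlap, so leaving out an array could not turn them. Median centring raised the median difference of all probe sets by 0.052. The mean of both NRG1 probe sets differed by 0.02. None of the following had passed, and their sign turned. EPGN was 0.0219 after median centring and 0.00109 with array weights, NRG4 was -0.00841 with array weights, and with 1 array left out ERBB4 ran from -0.106 to 0.0096, EPGN from -0.0554 to 0.0178, NRG2 from -0.0125 to 0.0257 and NRG4 from -0.00707 to 0.0294. With a replicate block, 1 probe set passed, which was DKK1. Same-numbered arrays correlated in their deviations at 0.105, 0.00821 and -0.137. Arrays of unlike number were not compared in this way, so whether same-numbered arrays share more than a number was not settled. The block has fewer degrees of freedom.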

Other observations

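EREG lies on chromosome 4 in a run of ligand genes, EPGN, EREG, AREG and BTC, with no other protein-coding gene between them in the gene table. Of the 4 protein-coding genes on each side of that run, all 8 were measured, 0 passed an adjusted p of 0.05 in limma, and their log2 differences of DLD-1/DKK1 minus DLD-1/Mock ran from -0.16 to 0.19. Before adjustment 3 of the 8 were under 0.05, beside 9.23% of all probe sets, and these are named here after their values were seen. CXCL5, a chemokine that attracts neutrophils, had 10.97, 11.00 and 10.96 in DLD-1/DKK1, against 11.09, 11.22 and 11.10 in DLD-1/Mock, a difference of -0.16. PARM1, a mucin-like membrane protein, had 11.88, 11.93 and 11.89 in DLD-1/DKK1, against 11.71, 11.69 and 11.72 in DLD-1/Mock, a difference of 0.19. RCHY1, a ubiquitin ligase, had a difference of 0.15. Genes on the same stretch as EREG thus lay on both sides of 0, and the groups did not overlap in these 3, as in 16.5% of all probe sets.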
